A study of Mus musculus with 2 samples.

Results

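LMO7 is a LIM domain protein that ties cell junctions to the actin cytoskeleton, and its gene was examined here together with 9 genes of LIM or junction proteins linked to it. The 10 genes (*Lmo7*, *Limch1*, *Afdn*, *Actn1*, *Actn4*, *Zyx*, *Pdlim1*, *Pdlim7*, *Emd* and *Lmo4*) were chosen by name from the 32285 genes counted in both libraries, and all 10 were found in each. They were described across cell classes gated by marker genes, and between the host genotypes.

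The data are single-cell RNA sequencing counts of sorted live cells. They came from tumors of MC38, a colon cancer line of the mouse that was placed under the skin. One library came from wild-type hosts (*Lmo7*+/+) and one from hosts with a genomic, whole-body knockout of *Lmo7* (*Lmo7*-/-) on the C57BL/6 background. The implanted MC38 cells are not the hosts' own and carry *Lmo7* in both libraries, so host cells alone differ in genotype by design. The number of mice behind each library and the exons removed by the deletion were not given in the sources used here, and the pooled libraries were sequenced together. With 1 library per genotype no test between genotypes was possible, and every value below describes these 2 libraries.

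LIM domains are zinc-binding folds that hold proteins together, and many LIM proteins sit where actin filaments meet the cell membrane. At adherens junctions, cadherins and nectins on neighbouring cells are linked to actin through catenins, afadin and the α-actinins, while zyxin marks actin under tension in focal adhesions. Several of these proteins also travel to the nucleus, and LMO7 itself is known to bind emerin at the inner nuclear membrane.

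The deposited tables held 16208 cell barcodes with 98582479 UMIs from the *Lmo7*+/+ library and 15163 with 80648345 from the *Lmo7*-/- library, a UMI being the tag of 1 captured RNA molecule. After filtering, 13542 and 11860 cells were kept, with a median of 4535.5 and 4304.5 UMIs per cell. A cell was assigned to a class from its UMIs of fixed marker genes, none of them a member, and 27.3% and 26.0% of cells fell in no class. The 7 classes used below were tumor cells (4977 in the *Lmo7*+/+ library and 3541 in the other), macrophages (3570 and 4070), monocytes (537 and 384), dendritic cells (207 and 153), T cells (337 and 476), endothelial cells (61 and 56) and fibroblasts (109 and 76). All markers of the 6 host classes reached 5 CPM (the UMIs of a gene per 1000000 UMIs of its class) in their own class, against 13 and 12 of 22 for tumor cells. Simple-epithelium keratins were near 0 in tumor cells (*Krt8* at 3.17 and 0.187 CPM), and *Krt7* and *Cldn4* had no UMI in the *Lmo7*-/- library. *Tm4sf1* (658 and 600 CPM) and *Hmga2* (244 and 328 CPM) led among the markers there, and *Krt14* had 38.8 and 45.6 CPM, so the class is to be read as cells of this gate. The libraries shared 279 barcodes, of which 175 were kept in both and 42 fell in the same class in both. Within the fibroblast class the summed level of the 21 tumor markers other than *Tm4sf1* was 2129 CPM in the *Lmo7*+/+ library and 407 CPM in the other, and *H19* made 79.5% and 43.6% of the UMIs of all tumor markers. *H19* itself was at 1847 and 266 CPM in fibroblasts, above its 44.5 and 33.9 CPM in tumor cells. The part of tumor cell RNA in fibroblast values was not tested.

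*Lmo7* (ENSMUSG00000033060) lies on the plus strand of chromosome 14 at chr14:101729957-101934710 in GRCm38. It has 2 RefSeq promoter windows on GRCm38.p6, each running from 250 bases before to 50 bases after a transcript start. The windows begin 110695 bases apart. They are shown since *Lmo7* is the gene targeted in the hosts, together with those of *Zyx* and *Actn4*, the members with a TGANTCA motif. Capitals mark TGANTCA, the pattern of AP-1 sites, and GGGCGG, the GC box, on either strand, as found by a letter search.

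Lmo7 upstream window, chr14:101729678-101729977, plus strand: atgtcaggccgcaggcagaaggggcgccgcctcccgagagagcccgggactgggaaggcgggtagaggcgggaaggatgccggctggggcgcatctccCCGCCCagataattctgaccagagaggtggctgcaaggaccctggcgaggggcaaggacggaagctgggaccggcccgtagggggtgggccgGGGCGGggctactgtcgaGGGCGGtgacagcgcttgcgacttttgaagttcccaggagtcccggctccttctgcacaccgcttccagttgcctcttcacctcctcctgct
Lmo7 downstream window, chr14:101840373-101840672, plus strand: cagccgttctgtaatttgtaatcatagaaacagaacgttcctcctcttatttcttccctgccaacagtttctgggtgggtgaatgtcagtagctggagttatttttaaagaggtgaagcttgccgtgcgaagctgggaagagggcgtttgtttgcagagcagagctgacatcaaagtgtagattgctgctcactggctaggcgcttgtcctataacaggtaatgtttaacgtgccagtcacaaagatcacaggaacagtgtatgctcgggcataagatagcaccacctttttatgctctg
Zyx, chr6:42349578-42349877, plus strand: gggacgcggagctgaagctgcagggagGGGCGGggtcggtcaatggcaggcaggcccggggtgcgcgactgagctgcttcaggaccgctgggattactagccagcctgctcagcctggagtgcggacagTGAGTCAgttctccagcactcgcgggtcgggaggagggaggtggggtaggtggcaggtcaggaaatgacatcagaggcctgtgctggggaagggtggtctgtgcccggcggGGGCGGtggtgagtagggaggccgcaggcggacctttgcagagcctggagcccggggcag
Actn4, chr7:28962283-28962582, minus strand: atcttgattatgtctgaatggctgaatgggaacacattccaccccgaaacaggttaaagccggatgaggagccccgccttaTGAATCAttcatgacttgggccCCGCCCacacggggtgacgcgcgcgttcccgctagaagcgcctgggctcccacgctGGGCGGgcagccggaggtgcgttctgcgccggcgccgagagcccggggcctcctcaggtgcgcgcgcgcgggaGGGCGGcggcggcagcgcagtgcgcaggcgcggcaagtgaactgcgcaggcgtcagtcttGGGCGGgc

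The upstream *Lmo7* window held 3 GC boxes and the downstream window none. TGANTCA began 121 bases before the start of *Zyx* and 169 bases before that of *Actn4*. It was found in 2 of the 15 windows of the members, and in 7.81% of all 32851 RefSeq windows. GGGCGG was found in 12 of the 15 windows, covering all 10 members, against 35.7% of all windows. A CArG box, the letters bound by serum response factor, was found in 0 of the 15 windows and in 1.63% of all. A match is a match of letters only.

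*Lmo7* was found in tumor cells and in endothelial cells, with little elsewhere. In tumor cells 1073 UMIs gave 19.6 CPM in the *Lmo7*+/+ library (95% interval 18.4 to 20.8) and 585 UMIs gave 15.6 CPM in the *Lmo7*-/- library (14.4 to 17.0). Endothelial cells held 15 and 11 UMIs, or 50.6 CPM (28.3 to 83.5) and 35.3 CPM (17.6 to 63.2). Intervals here and below cover counting error only. Endothelial cells stood above tumor cells by 1.37 and 1.17 on the log2 scale, and the intervals of the levels did not overlap in either library. Macrophages held 18 and 14 UMIs, 0.864 and 0.673 CPM, which put tumor cells 22.6-fold and 23.3-fold above them. Monocytes, dendritic cells, T cells and fibroblasts held 0 to 4 UMIs each per library. Monocytes of the *Lmo7*+/+ library had 0 UMIs, and the level that 3 UMIs would give was taken as their floor. Endothelial cells stood 29.3-fold and tumor cells 11.3-fold above that floor. Above the same floor for T cells of the *Lmo7*-/- library, also at 0, they stood 17.1-fold and 7.58-fold. These folds leave out the counting error of the higher class and are not lower bounds.

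**Figure D1:**
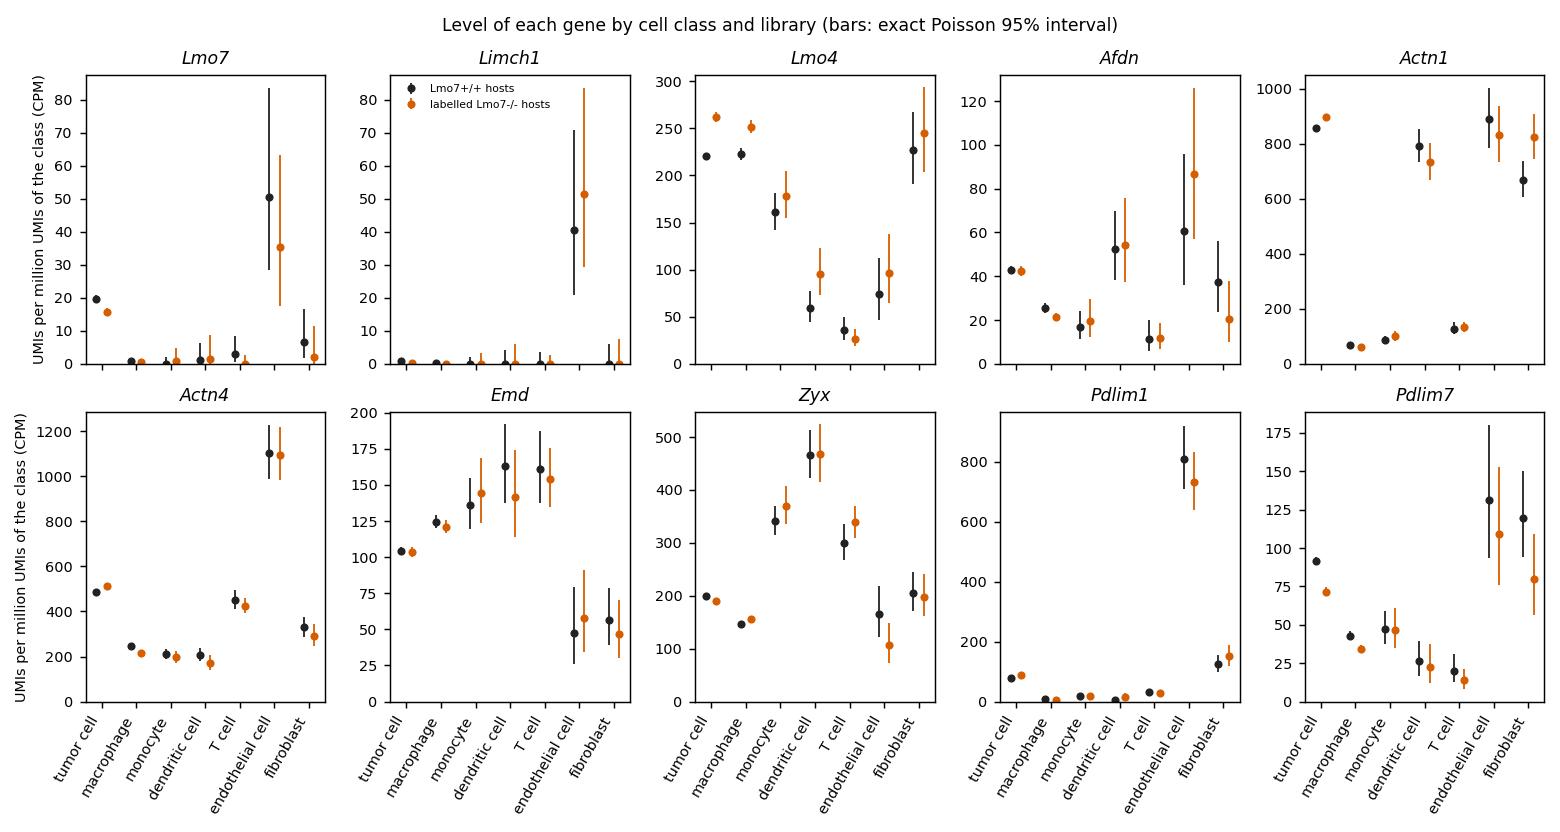
Level of each of the 10 members in 7 marker-gated classes, in CPM on a linear axis that starts at 0 and has its own range for each gene, with 1 point per library and bars for the exact 95% Poisson interval of the count. *Lmo7*, *Limch1* and *Pdlim1* are highest in endothelial cells in both libraries, *Actn1* is high in tumor, endothelial, dendritic and fibroblast classes, and *Zyx* is highest in dendritic cells.

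At the level of single cells *Lmo7* was sparse. Of the tumor cells, 4159 of 4977 and 3067 of 3541 had no *Lmo7* UMI, and no cell held more than 8 and 4. With all cells drawn down to 1500 UMIs, 3.19% of 4708 tumor cells (2.70 to 3.73%) and 2.95% of 3327 (2.40 to 3.58%) had one, against 16.4% and 13.4% before this thinning, which left out 269 and 214 shallower tumor cells. T cells, taken as a class that should lack it, had one in 2 of 270 thinned cells (0.741%) and in 0 of 375, which allows a share of up to 0.8%. The macrophage shares, 5 of 3358 cells (0.149%) and 7 of 3761 (0.186%), cannot be told from background at these numbers of T cells. Median depths before thinning were 5321.5 and 4607 UMIs in macrophages and 2463 and 2407.5 in T cells. Endothelial cells had a *Lmo7* UMI in 2 of 55 (3.64%, 0.443 to 12.5%) and 5 of 47 (10.6%, 3.55 to 23.1%). Both intervals overlap those of thinned tumor cells, so the shares do not separate these classes.

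*Lmo7* was also set against tumor marker UMIs, since UMIs of tumor markers were counted in every class. Against the 21 markers other than *Tm4sf1*, which endothelial cells also express, tumor cells held 2.95 and 1.96 *Lmo7* UMIs per 100 marker UMIs. Endothelial cells held 33.3 (18.7 to 54.98) and 31.4 (15.7 to 56.2), and macrophages 1.10 (0.651 to 1.74) and 0.916 (0.501 to 1.54). Some of these markers are not particular to tumor cells, as *Nt5e* had 22.9 and 24.5 CPM in macrophages against 7.62 and 6.42 CPM in tumor cells. The ratio was therefore also taken with the 7 markers of at least 10 CPM in tumor cells and under 10% of that level in macrophages, a choice made after the values were seen. Tumor cells then held 3.32 (3.12 to 3.52) and 2.14 (1.97 to 2.32) *Lmo7* UMIs per 100, and macrophages 3.47 (2.06 to 5.49) and 3.38 (1.85 to 5.67), so their intervals overlapped in both libraries. Endothelial cells had 15 and 11 *Lmo7* UMIs beside 11 and 7 UMIs of the 7 markers. The part of tumor cell RNA in the *Lmo7* counts of host classes was not tested.

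**Figure D2:**
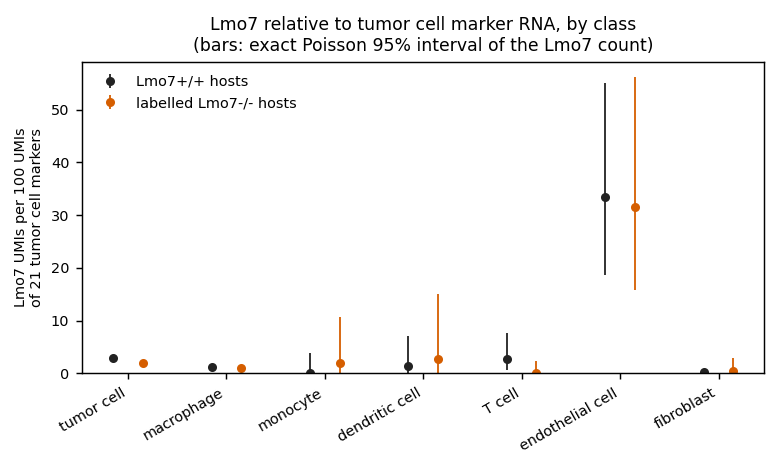
*Lmo7* UMIs per 100 UMIs of 21 tumor markers (y axis) in each class and library, with exact 95% Poisson intervals of the *Lmo7* count. Endothelial cells lie above tumor cells in both libraries, at 33.3 and 31.4 against 2.95 and 1.96. Macrophages lie below with these 21 markers, but at 3.47 and 3.38 against 3.32 and 2.14 with 7 markers that are low in macrophages. Choosing markers low in macrophages raises the macrophage ratio by itself. The gates also limit tumor markers in macrophages and ask for them in tumor cells, so the ratios depend on the gates.

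The targeted gene serves as a check of the labels only in host cells. All host classes together held 41 *Lmo7* UMIs in the *Lmo7*+/+ library (1.61 CPM) and 28 in the *Lmo7*-/- library (1.12 CPM), a log2 ratio of −0.51 (−1.26 to 0.21). In endothelial cells the log2 ratio was −0.52 (−1.79 to 0.70). Both intervals hold 0. A count of *Lmo7* UMIs does not check the label if the counted end of the transcript lies outside the removed exons, whose place is not given here. The genotype of the library labelled *Lmo7*-/- therefore rests on its label.

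*Limch1* (ENSMUSG00000037736, chr5:66745827-67057158, plus strand) encodes the LIM and calponin-homology protein closest in build to LMO7, known to act on non-muscle myosin. In endothelial cells it had 12 and 16 UMIs, or 40.5 CPM (20.9 to 70.7) and 51.4 CPM (29.4 to 83.5). Tumor cells were at 0.802 and 0.375 CPM, from 44 and 14 UMIs, and macrophages held 2 and 1 UMIs. No UMI was counted in monocytes, dendritic cells, T cells or fibroblasts of either library. Endothelial cells were at least 8.33-fold and 8.38-fold above fibroblasts, and at least 23.4-fold and 19.4-fold above monocytes. *Limch1* and *Lmo7* therefore shared the endothelial class as their highest, but in tumor cells they parted, with endothelial over tumor log2 ratios of 5.66 and 7.10 for *Limch1*. Few tumor cells carried markers of simple epithelium, and 9 in the *Lmo7*+/+ library and 2 in the other had at least 2 UMIs of *Krt8*, *Krt18*, *Krt19*, *Krt7* and *Cldn4*, a group formed after the data were seen. These 9 cells held 72 of the 242 *Epcam* UMIs of the class, 5 of its 1073 *Lmo7* UMIs and 2 of its 44 *Limch1* UMIs.

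*Afdn* (ENSMUSG00000068036, chr17:13760539-13906150, plus strand) encodes afadin, which couples nectins to actin and is known to bind LMO7. Its levels ran from 60.7 and 86.7 CPM in endothelial cells to 11.5 and 11.7 CPM in T cells. Tumor cells had 42.7 CPM (41.0 to 44.5) and 42.4 CPM (40.3 to 44.5), and dendritic cells 52.4 and 54.1 CPM. Macrophages had 25.4 and 21.3 CPM. Of the 7 classes in order, no neighbouring pair had intervals that separated in both libraries. The annotation places *Tcte2*, with 44 UMIs in the 7 classes, on the opposite strand within *Afdn*, and whether counting used strand was not given in the sources used here.

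*Actn1* (ENSMUSG00000015143, chr12:80167547-80260371, minus strand) encodes α-actinin-1, an actin crosslinker of stress fibres and adhesions. It split the classes into a high and a low set. Tumor cells (856 and 899 CPM), endothelial cells (891 and 832 CPM), dendritic cells (793 and 733 CPM) and fibroblasts (669 and 824 CPM) formed the high set. T cells (128 and 133 CPM), monocytes (86.5 and 101 CPM) and macrophages (69.5 and 62.0 CPM) formed the low set, and the gap between fibroblasts and T cells separated in both libraries. Dendritic cells stood 3.51 and 3.56 above macrophages on the log2 scale, although both are myeloid. After thinning, 56.9% and 57.5% of dendritic cells had an *Actn1* UMI, against 8.34% and 8.003% of macrophages and 70.2% and 72.2% of tumor cells. Among tumor cells 3910 of 4977 and 2817 of 3541 held more than 2 *Actn1* UMIs before thinning, with up to 143 and 84 in 1 cell.

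*Actn4* (ENSMUSG00000054808, chr7:28893248-28962340, minus strand) encodes α-actinin-4, the second non-muscle α-actinin. Endothelial cells led with 1103 CPM (987 to 1230) and 1095 CPM (982 to 1218). Tumor cells followed at 484 and 512 CPM, below endothelial cells by 1.19 and 1.10 on the log2 scale. T cells had 453 and 425 CPM, the intervals of which separated from those of the next class, fibroblasts (329 and 292 CPM). Macrophages (244 and 216 CPM), monocytes (212 and 197 CPM) and dendritic cells (207 and 172 CPM) were lowest. The α-actinins thus ranked dendritic cells and T cells in opposite order in both libraries, since T cells had more *Actn4* and less *Actn1* than dendritic cells.

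*Zyx* (ENSMUSG00000029860, chr6:42349630-42360213, plus strand), whose TGANTCA-bearing window is printed above, encodes zyxin, a LIM protein that recruits actin-building factors to focal adhesions and stress fibres. It was highest in dendritic cells, at 466 CPM (422 to 513) and 468 CPM (416 to 524). Monocytes had 341 and 370 CPM and T cells 300 and 339 CPM. Fibroblasts (206 and 198 CPM), tumor cells (200 and 190 CPM), endothelial cells (165 and 106 CPM) and macrophages (147 and 157 CPM) had less. Dendritic cells separated from monocytes, and T cells from fibroblasts, in both libraries. After thinning, a *Zyx* UMI was found in 45.6% and 44.5% of dendritic cells, 38.5% and 41.3% of T cells, 34.1% and 37.0% of monocytes and 19.1% and 19.6% of macrophages. Monocytes and T cells thus changed places between level and share, and their order is not read.

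*Pdlim1* (ENSMUSG00000055044, chr19:40221173-40271842, minus strand) encodes CLP36, a PDZ and LIM protein that binds α-actinin. It stood out in endothelial cells, at 810 CPM (711 to 919) and 732 CPM (640 to 834). Fibroblasts came next with 125 and 151 CPM, then tumor cells with 77.8 and 88.4 CPM and T cells with 30.7 and 28.2 CPM. Each of these steps separated in both libraries. Macrophages had 7.06 and 5.53 CPM, 115-fold and 133-fold below endothelial cells. A *Pdlim1* UMI was found in 63.6% and 55.3% of thinned endothelial cells, and in 1.01% and 0.798% of thinned macrophages.

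*Pdlim7* (ENSMUSG00000021493, chr13:55495795-55513676, minus strand) encodes enigma, another PDZ and LIM protein of the actin cytoskeleton. Endothelial cells (132 and 109 CPM), fibroblasts (120 and 79.8 CPM) and tumor cells (91.8 and 71.7 CPM) formed the upper group. Monocytes (47.3 and 46.7 CPM), macrophages (42.9 and 34.0 CPM), dendritic cells (26.2 and 22.3 CPM) and T cells (20.1 and 13.8 CPM) had less. The step from tumor cells to monocytes was the only one between neighbours that separated in both libraries.

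*Emd* (ENSMUSG00000001964, chrX:74254687-74261548, plus strand) encodes emerin, the inner nuclear membrane protein that LMO7 is known to bind. It ran the other way from most members. T cells (161 and 154 CPM), dendritic cells (163 and 142 CPM), monocytes (136 and 145 CPM) and macrophages (125 and 121 CPM) were high. Tumor cells followed at 104 and 104 CPM, separated from macrophages in both libraries, and endothelial cells (47.2 and 57.8 CPM) and fibroblasts (56.7 and 47.0 CPM) were lowest.

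*Lmo4* (ENSMUSG00000028266, chr3:144188530-144205220, minus strand) encodes a LIM-only protein that works in the nucleus as a bridge in transcription complexes and has no actin-binding part. Fibroblasts (227 and 245 CPM), tumor cells (220 and 262 CPM), macrophages (223 and 252 CPM) and monocytes (161 and 178 CPM) were high. Endothelial cells (74.2 and 96.4 CPM), dendritic cells (59.3 and 95.4 CPM) and T cells (36.4 and 26.8 CPM) were low. The step between monocytes and endothelial cells separated in both libraries. A gene within an intron of *Lmo4* on the same strand, *Gm43445*, had 168 UMIs in the 7 classes.

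Counted over members, 6 of the 9 with at least 20 UMIs in these classes (*Lmo7*, *Afdn*, *Actn1*, *Actn4*, *Pdlim1* and *Pdlim7*) were at least 1.5-fold higher in tumor cells than in macrophages in both libraries. Across all genes tested, 42.9% were. None of the 9 was at least 1.5-fold lower, against 21.1% of all genes. *Actn1* and *Pdlim1* led after *Lmo7*, with log2 ratios of 3.62 and 3.86, and of 3.46 and 4.00. *Pdlim7* (1.10 and 1.08), *Actn4* (0.99 and 1.24) and *Afdn* (0.75 and 0.99) followed. *Zyx* (0.44 and 0.28), *Lmo4* (−0.02 and 0.06) and *Emd* (−0.26 and −0.23) were within 1.5-fold. Endothelial cells were the highest of the 7 classes in both libraries for 5 of the 9 members with at least 500 UMIs (*Lmo7*, *Afdn*, *Actn4*, *Pdlim1* and *Pdlim7*), against 9.87% of all such genes, although the 2 libraries hold only 61 and 56 endothelial cells. Of these, *Lmo7*, *Actn4* and *Pdlim1* separated from the next class in both libraries. *Afdn* overlapped dendritic cells and *Pdlim7* overlapped fibroblasts. The share of all genes did not ask for separation either. Dendritic cells were highest for 1 of the 9, *Zyx*, against 5% of all.

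Members differed in how alike their profiles were, taken as Pearson's r of log2(CPM + 1) over 14 profiles (7 classes in 2 libraries, which share library and depth). *Actn4* and *Pdlim1* were most alike (0.86), and *Lmo7* matched each of them at 0.84. *Emd* ran against *Pdlim7* (−0.85) and *Pdlim1* (−0.84) and went with *Zyx* at 0.66. Among all genes with at least 500 UMIs, those most like *Lmo7* were *Mgat4b* (0.97), *Ttbk2* (0.97) and *Sema6a* (0.96). *Actn1* was most like *Fscn1* (0.99), which encodes the actin bundler fascin, then *Nck2* (0.95). *Actn4* was most like *Myl12a* (0.97), a myosin light chain gene, *Ptprk* (0.96) and *Flywch1* (0.96). *Pdlim1* was closest to *Eml1* (0.97), *Jcad* (0.96), whose product sits at endothelial junctions, and *Ehd2* (0.96). For *Afdn* the leading gene was *Ctnna1* (0.92), which encodes α-catenin, before *Rps6ka2* (0.92) and *Laptm4b* (0.90). *Zyx* had lower values, with *Traf1* (0.91), *Rab21* (0.88) and *Btg1* (0.88). The remaining members were closest to *Fam102b* (0.97), *Sgk1* (0.96) and *Rab31* (0.93) for *Lmo4*, to *Cyld* (0.97), *AI662270* (0.97) and *Yeats4* (0.96) for *Emd*, and to *Tnfrsf23* (0.97), *Dock1* (0.97) and *Arsa* (0.96) for *Pdlim7*. *Limch1*, with 89 UMIs, fell below the 200 set for naming like genes. Among members it was most like *Actn4* (0.84), *Pdlim1* (0.78) and *Lmo7* (0.78), and ran against *Emd* (−0.61). These values rest largely on the endothelial profiles, since *Limch1* had no UMI in monocytes, dendritic cells, T cells or fibroblasts.

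Within tumor cells, none of the 9 members tested passed 1.5-fold in the same direction in both libraries between cycling and resting cells, against 8.47% of all genes higher and 11.4% lower. Cycling cells, gated by markers such as *Mki67* and *Top2a*, numbered 2232 and 1747, and resting cells 1485 and 974. *Zyx* had 242 CPM in resting and 168 CPM in cycling cells of the *Lmo7*+/+ library, and 252 and 162 CPM in the other, log2 ratios of −0.53 and −0.64. *Lmo4* had 261 against 202 CPM and 346 against 225 CPM (−0.37 and −0.62). *Lmo7* had 22.8 against 19.8 CPM and 20.8 against 13.4 CPM (−0.20 and −0.63). *Pdlim7* had 100 against 85.4 CPM and 80.4 against 65.9 CPM (−0.23 and −0.29). *Actn4* was slightly higher in cycling cells, by 0.25 and 0.18, while *Actn1* hardly moved (0.00 and −0.05).

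Macrophages gave the clearest cycling difference, in *Actn4*. Its level was 340 CPM in 1071 cycling against 172 CPM in 1519 resting macrophages of the *Lmo7*+/+ library, and 319 CPM in 944 against 167 CPM in 2119 of the *Lmo7*-/- library. The log2 ratios were 0.99 (0.89 to 1.08) and 0.93 (0.84 to 1.03), and stayed at 0.88 and 0.83 when each cell was thinned to 1500 UMIs, as cycling cells were deeper (medians of 6409 and 5787 UMIs against 5163 and 4519). *Actn4* was the 1 of 8 members past 1.5-fold in both libraries, against 9.18% of all genes, and 0 of 8 were lower, against 2.75%. *Lmo4* was also higher in cycling macrophages (0.53 and 0.46), and *Actn1* less so (0.42 and 0.26). *Zyx* stayed near 0 (−0.03 and −0.19). *Pdlim1* differed between the libraries, at −0.01 (−0.61 to 0.58) and 1.09 (0.43 to 1.76), from 37 to 52 UMIs in each group.

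**Figure D3:**
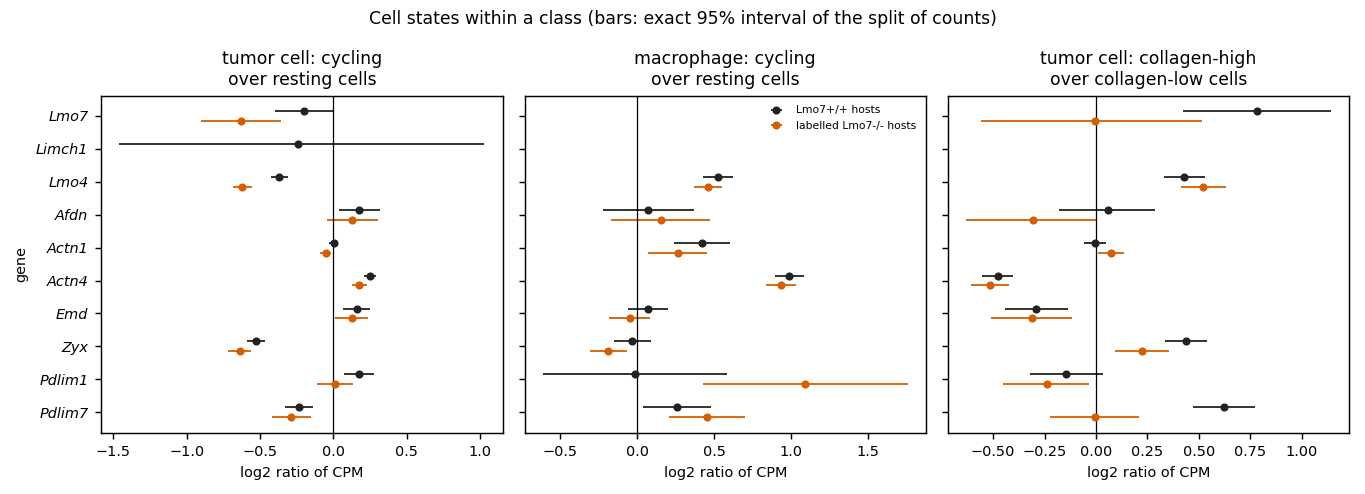
Log2 ratio of member levels for cycling over resting tumor cells, cycling over resting macrophages and collagen-high over collagen-low tumor cells, for each library, with exact 95% intervals for counting error. In macrophages *Actn4* lies near 1 for cycling over resting cells in both libraries. For cycling over resting tumor cells *Zyx*, *Lmo4*, *Lmo7* and *Pdlim7* lie below 0 in both libraries.

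Other splits were added after the data were seen. Tumor cells with high collagen and other fibroblast marker levels (533 and 325) were set against those with low levels (1197 and 1074). *Lmo4* (0.43 and 0.52) and *Zyx* (0.44 and 0.23) were higher and *Actn4* lower (−0.48 and −0.51) in collagen-high cells of both libraries. *Lmo7* was at 22.6 against 13.1 CPM in the *Lmo7*+/+ library, a log2 ratio of 0.78 (0.42 to 1.14), and at 13.0 against 13.0 CPM in the *Lmo7*-/- library, −0.01 (−0.56 to 0.52). *Pdlim7* did likewise, with 117 against 75.9 CPM (0.62) and 77.2 against 77.5 CPM (−0.01). No member of the 9 passed 1.5-fold the same way in both, against 17.8% of all genes higher and 6.45% lower. Among macrophages, those with monocyte markers (476 and 532 cells) had less *Lmo4* than those low in them (156 against 244 CPM, and 189 against 269 CPM) and more *Zyx* (180 against 139 CPM, and 196 against 148 CPM). *Pdlim1* was the 1 of 8 members past 1.5-fold in both libraries, at 0.61 (−0.08 to 1.26) and 1.45 (0.76 to 2.11), against 3% of all genes higher, and 0 of 8 were lower, against 4.12%. In dendritic cells, those with *Ccr7*, *Ccl22* and *Cacnb3* (31 and 21 cells) had 330 and 377 CPM of *Zyx*, against 494 and 486 CPM in those with *Xcr1*, *Clec9a*, *Itgae* and *Plet1*, and 0 of 6 members passed 1.5-fold in both, against 12.3% of all genes higher and 18.5% lower.

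Between the genotypes, member levels in tumor cells moved little. *Limch1*, with a log2 ratio (*Lmo7*-/- over *Lmo7*+/+) of −1.10 (−2.08 to −0.20), was the only 1 of 10 members past 1.5-fold, against 8.14% of the 13907 genes tested. It rests on 44 and 14 UMIs, and with cells thinned to 1500 UMIs 0 members passed, as *Limch1* then had too few. *Pdlim7* (−0.36, −0.42 to −0.29) and *Lmo7* (−0.32, −0.47 to −0.17) were lower by less. *Lmo4* (0.25, 0.21 to 0.29) and *Pdlim1* (0.18, 0.12 to 0.25) were slightly higher. *Afdn* (−0.01), *Emd* (−0.01), *Actn1* (0.07), *Actn4* (0.08) and *Zyx* (−0.07) lay near the median of all genes, which was −0.05. The median of the 10 members was −0.01. The tumor cell *Lmo7* value depended on how cells were weighted, since the mean over cells gave −0.07 and thinned cells −0.12 (−0.50 to 0.25). MC38 cells carry the same *Lmo7* gene in both hosts.

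The lower *Lmo7* and *Pdlim7* of tumor cells in the *Lmo7*-/- library was read within states as well. These ratios are of summed counts, the weighting that gave the larger *Lmo7* difference above. In cycling tumor cells the genotype log2 ratio of *Lmo7* was −0.56 (−0.78 to −0.34), and in resting ones −0.13 (−0.39 to 0.12). In collagen-high cells it was −0.80 (−1.37 to −0.25), from 110 and 38 UMIs, and in collagen-low ones −0.01, at 13.1 and 13.0 CPM. *Pdlim7* was at −0.60 in collagen-high and 0.03 in collagen-low cells, but similar in cycling (−0.37) and resting cells (−0.32). Cycling cells made 44.8% and 49.3% of the class and collagen-high cells 10.7% and 9.18%. Whether the ratios differ between states beyond what 1 library each can vary was not tested.

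**Figure D4:**
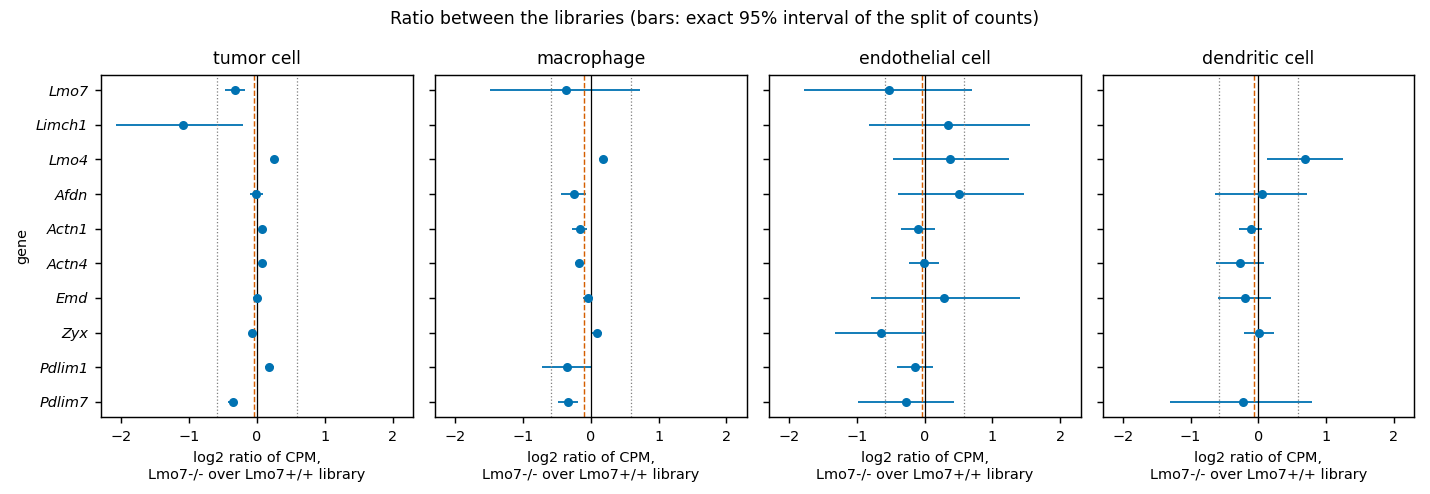
Log2 ratio of member levels, *Lmo7*-/- over *Lmo7*+/+ library, in tumor cells, macrophages, endothelial cells and dendritic cells, with exact 95% intervals for counting error, dotted lines at 1.5-fold and a dashed line at the median of all genes. In tumor cells only *Limch1* lies past 1.5-fold, in macrophages no member does (as a mean over cells *Pdlim1* does), and intervals are wide in endothelial cells.

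In macrophages 0 of 9 members passed 1.5-fold, against 9.13% of 12297 genes, although *Pdlim1* passed as a mean over cells (−0.67). The count for *Lmo7* was too low for a direction (−0.36, −1.48 to 0.73). *Pdlim7* (−0.34, −0.48 to −0.19), *Pdlim1* (−0.35, −0.72 to 0.01), *Afdn* (−0.25), *Actn4* (−0.18) and *Actn1* (−0.17) were below 0. *Lmo4* (0.18) and *Zyx* (0.09) were above, and *Emd* (−0.04) was near it. The members below 0 were those at least 1.5-fold higher in tumor cells than in macrophages. The part of tumor cell RNA in these macrophage ratios was not tested. The median of the members was −0.18 and that of all genes −0.10. Scaling by TMM, which sets the centre of all genes near 0, left *Actn1* at −0.07 and *Actn4* at −0.08. Within resting macrophages *Pdlim7* was at −0.40 and *Pdlim1* at −0.83. Within cycling ones *Pdlim7* was at −0.20 and *Pdlim1* at 0.27 (−0.35 to 0.89), the latter from 47 and 45 UMIs. Cycling cells made 30% of macrophages in the *Lmo7*+/+ library and 23.2% in the other.

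Smaller classes gave few members past 1.5-fold, and the background was higher there. Monocytes had 0 of 8 (17.2% of all genes) and T cells 0 of 8 (15.3%). Dendritic cells had 1 of 7, *Lmo4*, at 0.69 (0.13 to 1.25) from 52 and 60 UMIs, against 18% of all genes. Endothelial cells had 1 of 10, *Zyx*, at −0.64 (−1.32 to 0.03), against 26.8%, while *Limch1* was at 0.34. Fibroblasts had 2 of 8, *Afdn* (−0.87) and *Pdlim7* (−0.59), against 24.7%, with the unequal *H19* levels described above. *Lmo4* was above 0 in tumor cells, macrophages, monocytes, dendritic cells, endothelial cells and fibroblasts and below 0 in T cells. Its intervals held 0 in monocytes, endothelial cells, fibroblasts and T cells.

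The wider families of these proteins were read from 6 lists of 89 genes that hold no member. Among 18 tested genes of the adherens junction, 12 were at least 1.5-fold higher in tumor cells than in macrophages in both libraries, against 42.9% of all genes, and 2 were lower, *Cdh1* and *Sorbs3*, against 21.1%. For other PDZ-LIM and LIM proteins 13 of 23 were higher and 5 lower (*Pdlim2*, *Pdlim4*, *Pxn*, *Limk1* and *Mical1*), and for actin crosslinkers and contractile proteins 11 of 18 were higher and 4 lower (*Tln1*, *Vasp*, *Evl* and *Myh10*). The lamina list had 4 higher (*Lmna*, *Banf1*, *Sun1* and *Syne2*) and 2 lower (*Lmnb1* and *Syne1*) of 11. Of 4 LIM-only and LIM-binding genes *Lmo1* and *Ldb2* were higher and *Lmo2* lower, and of 5 other genes linked to LMO7 *Bcar1* was higher and *Lrp1* lower. List medians of the log2 ratio lay between −0.15 and 1.77, and several of these genes were named after their values were seen.

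Both cadherins and LIM-only genes changed over between the classes, as read from values picked after they were seen. Tumor cells had *Cdh2* (72.9 and 58.1 CPM) and *Cdh11* (87.1 and 46.1 CPM), which encode cadherins of mesenchymal cells. *Cdh1*, which encodes E-cadherin, was at 0.620 and 0.294 CPM in tumor cells, at 29.0 and 19.7 CPM in macrophages and at 196 and 177 CPM in dendritic cells. Endothelial cells had *Cdh5* (911 and 1140 CPM), which encodes VE-cadherin. *Lmo2*, a regulator of blood cell development, was at 127 and 110 CPM in macrophages against 0.948 and 0.482 CPM in tumor cells, while *Lmo1* was at 38.4 and 49.0 CPM in tumor cells. *Vasp*, a partner of zyxin at actin filament ends, had 714 and 687 CPM in dendritic cells, 480 and 515 CPM in macrophages and 143 and 142 CPM in tumor cells.

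By the rule for named genes, the most abundant genes of each list in tumor cells were also read. *Tpm1* (1103 and 995 CPM), a tropomyosin gene, led the actin list with *Tagln2* (874 and 931 CPM) and *Tpm4* (654 and 653 CPM). *Lmna* (1000 and 931 CPM), which encodes lamin A/C, led the lamina list with *Banf1* (651 and 734 CPM) and *Tmpo* (160 and 157 CPM). The LIM list was led by *Tes* (607 and 616 CPM), *Lasp1* (273 and 287 CPM) and *Csrp2* (205 and 219 CPM). Each encodes a LIM protein of actin filaments. *Ctnnb1* (349 and 311 CPM), which encodes β-catenin, led the junction list with *Ctnna1* (139 and 134 CPM) and *Ctnnd1* (137 and 123 CPM). *Ldb1* (45.4 and 36.7 CPM) encodes the partner of LIM-only proteins and stood beside *Lmo1*, with *Ldb2* at 1.18 and 0.829 CPM. *Lrp1* (59.3 and 51.0 CPM), which encodes a phagocytic receptor, led the last list with *Bcar1* (51.6 and 50.5 CPM) and *Srf* (36.2 and 41.4 CPM).

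Between genotypes the lists held few genes past 1.5-fold in tumor cells, where 3.29% of all genes were higher and 4.85% lower. The junction list had *Cdh5* higher and *Cdh1* and *Cdh11* lower among 18. *Ablim1* was lower in the LIM list (23 genes), *Lmo2* in the LIM-only list (4 genes), and *Actn3* and *Tagln* in the actin list (18 genes), while the lamina list (11 genes) and the last list (5 genes) had 0. Of these only *Cdh11* and *Ablim1* had at least 100 UMIs. *Cdh11* was at −0.92 on the log2 scale (−0.999 to −0.84), and *Ablim1*, from 94 and 42 UMIs, at −0.61 (−1.17 to −0.07).

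Macrophages had 0 higher and 5 lower of 18 junction genes, against 3.7% and 5.43% of all genes, and a list median of −0.35 against −0.10. The 5 were *Cdh11* (4.03 and 1.68 CPM, −1.26), *Vcl* (11.8 and 7.64 CPM, −0.63), which encodes vinculin, *Ssx2ip* (13.6 and 9.08 CPM, −0.59), whose product binds afadin, *Tjp1* and *Nectin3*. Each of them was at least 1.5-fold higher in tumor cells than in macrophages in both libraries, and the part of tumor cell RNA in the macrophage values was not tested. *Ablim1* was higher and *Ajuba* lower among 22 LIM genes, *Lmo1* was lower among 3 LIM-only genes and *Tagln* among 17 actin genes. The lamina list and the last list had 0 in macrophages, with list medians of −0.21 each.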

How the data were processed

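The authors deposited raw UMI counts per gene and cell for 1 library per host genotype, and the submitters' notes name Cell Ranger 2.1.1 and mm10. A cell was kept with at least 500 genes, 1000 UMIs and a mitochondrial share of at most 15%. Each cell was gated by its marker UMIs per 10000, for example at least 60 of macrophage markers with under 6 of tumor cell markers, and tumor cells needed at least 3 with at most 5 of 4 leukocyte genes. Gate limits were set after marker levels were seen, and doublets (2.90% and 2.60% by Scrublet) were kept. The members, lists and markers were chosen with earlier results of these data known.

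Counts were summed per class and library and divided by the class total to give CPM, with exact Poisson intervals. Genotype ratios were taken for genes with 20 or more counts summed over the libraries and Clopper-Pearson intervals of the split, at 95%. No test was run, since each genotype has 1 library and cells are not replicates. States were gated at 10 or more UMIs of cycling markers per 10000 and under 2 for resting cells, and at 50 or more and under 5 of fibroblast markers for collagen-high and collagen-low cells. Macrophages were split at 5 or more and under 1 of monocyte markers. All 10 members were named, with partner genes past 1.5-fold with at least 100 counts in tumor cells or macrophages, up to 3 of the highest per list, and the 3 genes most like each member, of which 1 for *Actn1* is not reported here. Positions come from GENCODE M21 on GRCm38, which held 32235 of the 32285 gene identifiers, and promoters from RefSeq. Alternatives covered filters on cells, gates, Louvain clusters, doublets, library size, thinning and count minimums. The steps were tested on simulated data. Tools were Python 3.11.15, numpy 2.4.6, scipy 1.17.1, pandas 2.3.3, scanpy 1.11.5, igraph 0.11.9, scikit-learn 1.9.0, matplotlib 3.10.9, R 4.3.3 and edgeR 4.0.16 (TMM only).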

Additional observations from a re-analysis of the deposited data

Results flagged for a closer look

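The genotype log2 ratio (*Lmo7*-/- over *Lmo7*+/+ library) of 3 members had opposite signs in tumor cells and macrophages, with neither interval holding 0. *Actn1* was at 0.0698 in tumor cells and −0.165 in macrophages, *Actn4* at 0.0792 and −0.177, and *Zyx* at −0.073 and 0.0905. Each class has 1 library per genotype, so the difference between classes was not tested. The signs were the same under TMM scaling, at 0.12 and −0.07 for *Actn1*, 0.13 and −0.08 for *Actn4*, and −0.03 and 0.19 for *Zyx*. That scaling adds 0.0471 to tumor cell ratios and 0.0966 to macrophage ratios. Unscaled, the interval of macrophage *Actn1* ends at −0.056 and that of tumor cell *Zyx* at −0.03. With the added amounts both of these intervals hold 0. The median of all genes was −0.05 in tumor cells and −0.10 in macrophages. Within resting macrophages *Actn1* was at −0.04 (−0.22 to 0.14) and *Actn4* at −0.04 (−0.14 to 0.06). Within cycling ones they were at −0.20 (−0.39 to −0.01) and −0.09 (−0.18 to −0.01). Tumor cell *Zyx* was at −0.06 (−0.13 to 0.01) in cycling and 0.05 (−0.02 to 0.13) in resting cells. *Actn1* and *Actn4* stayed above 0 in both tumor cell states. *Actn1* was at 856 and 899 CPM in tumor cells and at 69.5 and 62.0 CPM in macrophages. The 7 tumor markers low in macrophages summed to 24.9 and 19.9 CPM there, against 589 and 732 CPM in tumor cells. The parts of cell states and of tumor cell RNA in these ratios were not tested. All of these values lay within 1.5-fold. *Pdlim1* also had opposite signs, at 0.18 and −0.35, but its macrophage interval (−0.72 to 0.01) holds 0.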

How the results depend on the processing

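No paired analysis was possible because each genotype has 1 library. In tumor cells the *Lmo7* log2 ratio between genotypes went from −0.32 to −0.072 as a mean over cells and to −0.12 in cells thinned to 1500 UMIs. Thinning left 0 members past 1.5-fold in tumor cells in place of 1, and the mean over cells gave 1 in macrophages in place of 0. The share of all genes past 1.5-fold was 8.14% in tumor cells, 3.23% with a minimum of 100 counts and 16.2% with 4, and 9.13%, 4.89% and 17.0% in macrophages. Tumor cells with a *Lmo7* UMI made 3.19% and 2.95% at 1500 UMIs, 2.09% and 1.89% at 1000 UMIs, and 5.47% and 4.75% at 3000 UMIs. Between cycling and resting tumor cells, thinning turned *Actn1* from −0.05 to 0.0099 and *Emd* from 0.12 to −0.11 in the *Lmo7*-/- library, and *Pdlim1* from 0.17 to −0.024 in the *Lmo7*+/+ library. The cause was not tested. Lenient and strict filters on cells, removal of shared barcodes and library sizes without the 10 most abundant genes moved 0 values by more than their interval, against 10 of 40 for Louvain clusters, 10 of 41 for a stricter gate, 8 of 41 for TMM, 11 of 41 for the mean over cells and 2 of 41 without doublets. Thinning to 1500 UMIs moved 28 values, turned 3 and left 43. Leaving out shared barcodes, the splits by collagen, monocyte and dendritic cell markers, the keratin-bearing cells, the 7 tumor markers and the ratios within states were added after the data were seen. Depth limits *Lmo7* and *Limch1* outside tumor cells, where most classes held under 5 UMIs.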
